A study of Mus musculus with 26 samples.

Results

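Effector regulatory T cells (eTreg) were compared with central regulatory T cells (cTreg) of wild-type (WT) mice, across all genes. The comparison rests on 4 of the 26 poly(A) RNA-seq libraries of the series, 2 of eTreg and 2 of cTreg, and covers the 12227 of 24411 genes that passed an expression filter. Both groups came from C57BL6/J mice with the Foxp3-IRES-hCD2 allele, in which a human CD2 (hCD2) surface protein is made together with Foxp3, and neither carried a mutation or received a treatment that the labels name. Cells were sorted freshly from lymph nodes and spleen together. The eTreg gate took CD4+hCD2+ cells low for CCR7, and the cTreg gate took CD4+hCD2+ cells high for CCR7 and low for CD44, each among other markers. CD44 is not part of the eTreg gate. Effector (Teff) and naive (Tnaive) conventional CD4+ T cells of the same strain and reporter, sorted as hCD2- with the corresponding gates, served 1 further contrast. No age is given, nor whether the libraries of a group came from separate animals or from pools. The p-values measure only the spread between libraries of a group, pooled over all 26 libraries in 13 groups, which include mutant Treg. That spread may be technical.

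Treg are CD4+ T cells that restrain immune responses under the transcription factor Foxp3. Central Treg circulate through lymphoid organs, as naive T cells do, guided by CCR7 and the sphingosine phosphate receptor S1PR1. Effector Treg have met antigen, enter non-lymphoid tissue, and carry more of the inhibitory receptors, cytokines and ectoenzymes through which Treg act. Among the factors that drive this step are BATF, an AP-1 family protein, and its partner IRF4.

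The genes behind the gates were read first, as a check of the labels and not as a finding. Ccr7 had 88.7 and 84.9 CPM (counts per 1000000, scaled by TMM) in eTreg and 431 and 428 in cTreg. Cd44 stood at 293 and 302 CPM in eTreg and at 73.9 and 77.4 in cTreg. Both lay on the side the gates set. Foxp3 (mm10 chromosome X, 7573644 to 7595245) had 522 and 484 CPM in eTreg and 519.7 and 540.3 in cTreg, and its groups overlapped (log2 change of -0.08 ± 0.15 (SE), edgeR adjusted p = 0.76). In the hCD2- libraries Foxp3 was at 0.293 and 0.274 CPM in Teff and 2.34 and 3.20 in Tnaive.

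Library totals were 10005091 and 9915735 counts in eTreg and 10641332 and 10002374 in cTreg. The libraries of a group correlated at 0.992 in eTreg and 0.994 in cTreg on log CPM across genes, which are not independent replicates. Of 9689 genes averaging at least 5 CPM in eTreg, 15 differed at least 2-fold between its libraries, 14 of them higher in library 2, while 1 of 9319 did so in cTreg. Markers of other cells were low but not equal. The summed CPM of 9 tested B and plasma cell markers was 126 and 128 in eTreg and 34.8 and 36.8 in cTreg. Most of it was Cd74, the invariant chain (95.0 and 94.1 CPM in eTreg, 14.5 and 16.7 in cTreg), while Pax5 was at or near 0 throughout. The summed CPM of 19 myeloid and dendritic markers was 177 and 187 in eTreg and 166 and 147 in cTreg, with Siglech and Clec10a at 0 in all 4 libraries, and that of 10 CD8 T and NK markers 40.1 and 42.6 in eTreg and 31.5 and 40.8 in cTreg, with Klre1 and Klrc2 at 0. Of 7 erythroid and stromal markers, the sums of 116 and 111 CPM in eTreg and 274 and 282 in cTreg were nearly all Pecam1, and the haemoglobin genes had 0 reads. By the rule given below, 4 of the 9 B and plasma cell markers were called higher in eTreg and 1 lower. Of the 19 myeloid and dendritic markers 3 were higher and 2 lower, and of the 10 CD8 T and NK markers 3 and 3. Of the 7 erythroid and stromal markers, 2 were higher and 1 lower. Over all tested genes, 18.8% were higher and 12.3% lower. The genes named at 0 do not stand for all such markers. The NK cell gene Klrb1c had 148 reads in eTreg and 0 in cTreg over both libraries. The plasma cell gene Sdc1 had 40 in eTreg and 1 in cTreg. The part of other cells in the results was not tested. Some genes usually abundant in T cells had few counts: Gapdh reached only 2.49 and 4.61 CPM in eTreg and 3.29 and 2.67 in cTreg, and Eno1 had 0 reads. The reason was not tested, and levels of these genes are uncertain. In sorted populations, fewer cells of a type and less RNA per cell cannot be told apart.

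eTreg and cTreg differed in 3800 of the 12227 tested genes, 31.1% (edgeR quasi-likelihood test, Benjamini-Hochberg adjusted p below 0.05 over all tested genes, the rule for every call given here). Of these, 2302 (18.8% of those tested) were higher in eTreg and 1498 (12.3%) were lower. The changes were unequal in size. Genes called higher had a median log2 change of 1.40 and genes called lower one of -0.74, against 0.01 over all tested genes (quartiles -0.24 and 0.38). At least 4-fold changes numbered 844 higher and 165 lower, and at least 16-fold changes 371 higher and 38 lower, whereas of changes under 2-fold 857 were higher and 1013 lower. In 260 called genes cTreg had 3 reads or fewer over both libraries, and in 34 eTreg did. A fit of the 4 libraries alone, with 2 residual degrees of freedom, called 5790 genes and a fit with a threshold of 2-fold 1148, so that a gene given here as not called may be called where the spread is taken from fewer groups. Both eTreg libraries lay above both cTreg libraries for 4666 genes (38.2%) and below both for 4331 (35.4%), the shares against which any non-overlap named here has to be read.

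**Figure D1:**
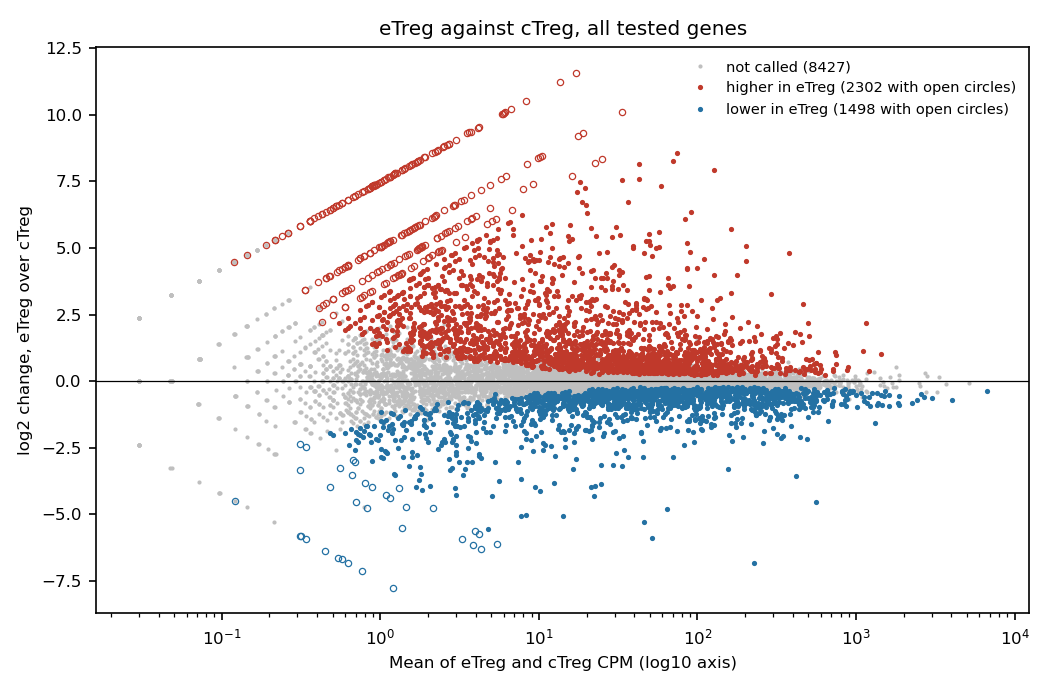
Log2 change of eTreg over cTreg (y axis) against the mean of the eTreg and cTreg CPM on a log10 axis (x axis), 1 point for each of 12227 tested genes. Genes called higher (2302) and lower (1498) in eTreg are coloured, and open circles mark called genes with 3 reads or fewer in 1 group, whose fitted change is not a measured fold. The rise is made of many large changes and the fall mostly of small ones.

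The genes with the largest folds were almost silent in cTreg. Miat (chromosome 5, 112213228 to 112229395), a long noncoding RNA, had 35.2 and 33.6 CPM in eTreg and 0 reads in cTreg, at least 238-fold higher if its 0 is set to 3 counts for both libraries together (adjusted p = 7.0e-08). Srxn1, encoding sulfiredoxin, which restores oxidised peroxiredoxins, had 11.9 and 14.8 CPM in eTreg and 0 reads in cTreg (at least 92.3-fold). The Notch ligand gene Jag1 (at least 50.3-fold), the basement membrane gene Nid2 (at least 81.1-fold) and Havcr2, encoding the inhibitory receptor TIM-3 (at least 58.2-fold), also had 0 reads in cTreg, as had Ky, Lrrn3, Mid2 and Zan. Sostdc1 and Ecel1 varied between the eTreg libraries, at 13.4 and 41.3 CPM and at 4.11 and 29.0 CPM, against 0 reads in cTreg, and neither was called without eTreg library 2 (adjusted p = 0.054 and 0.16), without cTreg library 1 (0.059 and 0.11), without cTreg library 2 (0.053 and 0.10) or in the fit of the 4 libraries (0.24 and 0.37). On the other side, Igfbp4 (chromosome 11, 99041244 to 99054392), which encodes a binding protein for insulin-like growth factors, had 4.40 and 3.65 CPM in eTreg and 408 and 501 in cTreg (log2 change of -6.81 ± 0.23, adjusted p = 1.3e-12). Ly6c1, which encodes a lipid-anchored surface antigen, had 2.68 and 1.92 CPM in eTreg and 94.8 and 84.5 in cTreg (-5.28 ± 0.20). The sorting receptor gene Sorcs2 had 1.62 and 1.82 CPM in eTreg and 93.0 and 109.9 in cTreg, and the P-selectin gene Selp 0.287 and 0.0960 in eTreg and 11.7 and 7.13 in cTreg. Acvr1c, Ampd1, Dapl1, Tmem108, Drc1, Nrp2, Tspan9 and Cnn3 complete the 12 largest falls.

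Counted in CPM rather than folds, other genes led. Ahnak, a giant scaffold protein gene, had 2019 and 1771 CPM in eTreg and 417 and 425 in cTreg (log2 change of 2.17 ± 0.18). Itgal, the alpha chain of LFA-1, had 1895 and 1956 CPM in eTreg and 961 and 940.4 in cTreg (1.02 ± 0.10). Ikzf2 (Helios), Itgb1, Maf, Tnfrsf1b, Cd82 and Serinc3 were the other 6 of the 8 largest gains. Among losses, the elongation factor gene Eef2 had 2948 and 3159 CPM in eTreg and 4842 and 5089 in cTreg (-0.70 ± 0.19, adjusted p = 0.0075), and the actin gene Actb 5866 and 5882 in eTreg and 7288 and 7686 in cTreg (-0.35 ± 0.12, adjusted p = 0.028). Kbtbd11, Macf1, Rps3, Arhgef1, Eef1a1 and Gnb2l1 made up the other 6. Leaving out any 1 of the 4 libraries ended the call of Actb (adjusted p of 0.065 to 0.15), and leaving out eTreg library 1 that of Eef2 (0.057).

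Genes of Treg identity moved apart. Of 21 tested members, 12 were higher in eTreg, 4 were lower and 5 were not called, with a median log2 change of 0.77, beside 18.8% higher, 12.3% lower and a median of 0.01 over all tested genes. Among those higher, Ikzf2 had 1544 and 1509.6 CPM in eTreg and 697 and 676 in cTreg (log2 change of 1.15 ± 0.24, adjusted p = 0.0011). The checkpoint receptor gene Ctla4, which removes costimulatory ligands from antigen-presenting cells, had 472 and 446 CPM in eTreg and 177 and 169 in cTreg (1.41 ± 0.20, adjusted p = 1.7e-05). Nrp1 (neuropilin-1) had 560.4 and 591 CPM in eTreg and 223 and 222 in cTreg, and Ebi3, a subunit of IL-35 and IL-27, had 35.3 and 33.0 CPM in eTreg and 1.97 and 1.59 in cTreg (4.25 ± 0.31). Among the 4 lower genes, Il2ra (chromosome 2, 11642807 to 11693193), the high-affinity chain CD25 of the IL-2 receptor, had 425 and 343 CPM in eTreg and 651 and 665 in cTreg (-0.78 ± 0.22, adjusted p = 0.011). Lrrc32 (GARP), which holds latent TGF-beta on the cell surface, had 227 and 181 CPM in eTreg and 369.7 and 354 in cTreg (-0.83 ± 0.25, adjusted p = 0.017). The orphan receptor gene Gpr83 had 61.4 and 54.2 CPM in eTreg and 158 and 141 in cTreg (-1.37 ± 0.21), and Peli2, an E3 ligase gene, 4.21 and 3.55 in eTreg and 8.65 and 10.3 in cTreg. Il2rb (959 and 956 CPM in eTreg, 951 and 915 in cTreg) and Ikzf4 (Eos; 208 and 194 CPM in eTreg, 183 and 162 in cTreg) were not called, nor was Foxp3. Of the 4 lower genes, 1 was still called without eTreg library 2 and 1 without cTreg library 2: the adjusted p of Il2ra, Lrrc32 and Peli2 was then 0.10, 0.15 and 0.080 without the eTreg library and 0.055, 0.058 and 0.071 without the cTreg library, and that of Lrrc32 was 0.080 without cTreg library 1.

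**Figure D2:**
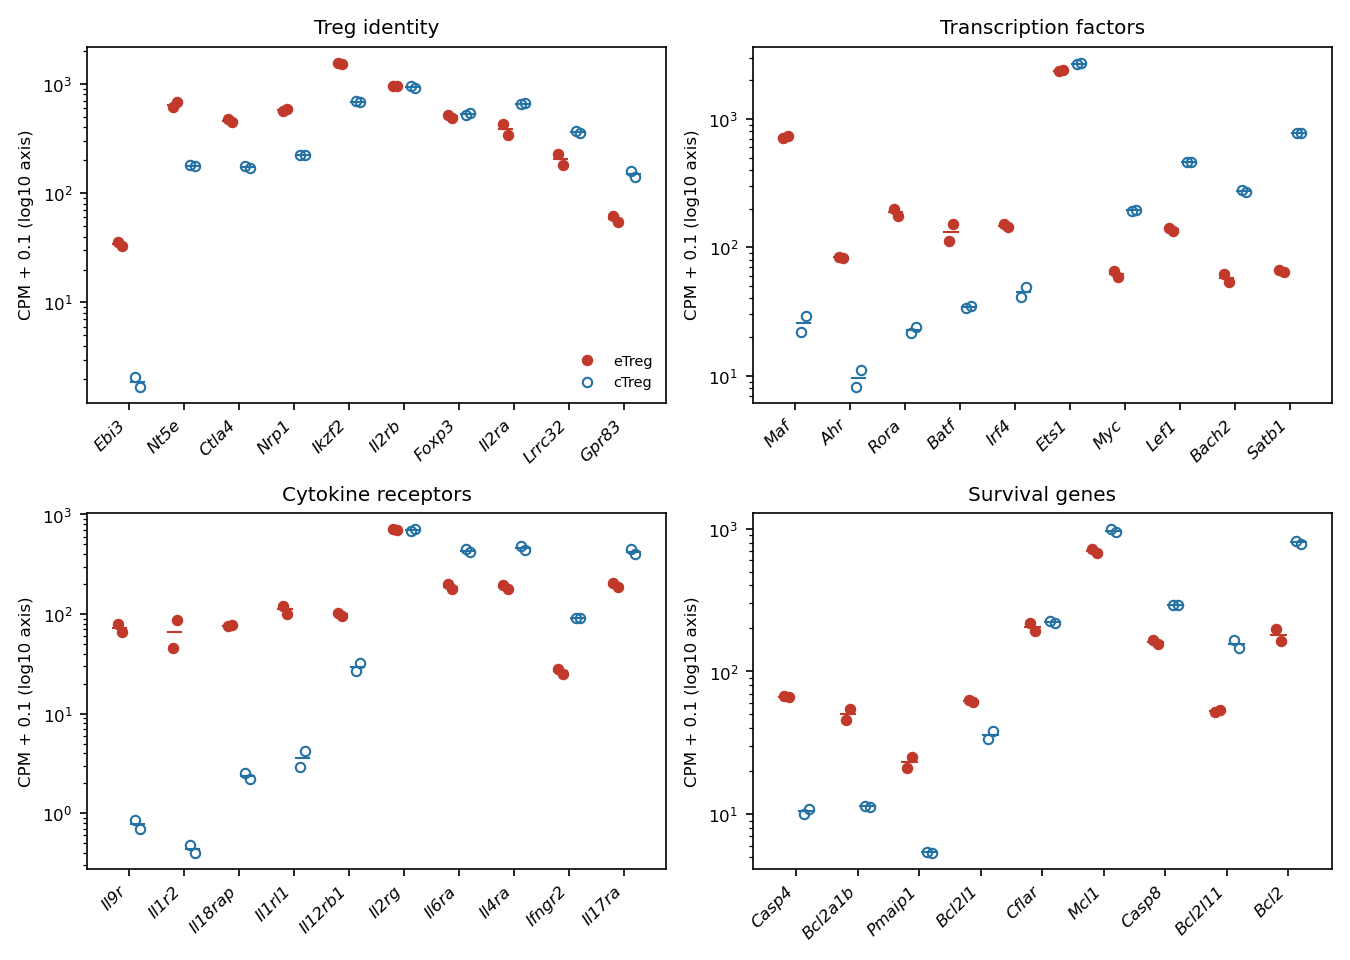
CPM on a log10 axis (y axis, 0.1 added) in each library for genes of 4 groups, with eTreg libraries as filled circles left of cTreg libraries as open circles for each gene. In the identity panel Ctla4 and Ikzf2 lie higher in eTreg, Il2ra and Lrrc32 lie lower and the Foxp3 libraries overlap, and in the survival panel Bcl2 and Bcl2l11 lie lower beside higher Bcl2a1b.

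Transcription factors split by role. Of 29 tested factors linked to effector or tissue Treg, 25 were higher in eTreg, 2 were lower and 2 were not called, with a median log2 change of 2.33. Of 20 factors linked to quiescence, 13 were lower and 7 were not called, with a median of -0.79, and none was higher (0 also at an unadjusted p below 0.05, and 0 with DESeq2). Maf (chromosome 8, 115682942 to 115707794), a bZIP factor upstream of Il10, had 714 and 737 CPM in eTreg and 21.8 and 29.2 in cTreg (log2 change of 4.83 ± 0.29, adjusted p = 7.1e-10). The aryl hydrocarbon receptor gene Ahr had 84.3 and 82.2 CPM in eTreg and 8.09 and 10.9 in cTreg (3.13 ± 0.20). Rora, which encodes a nuclear receptor, averaged 187 ± 17.8 CPM in eTreg and 22.8 ± 1.73 in cTreg (SD, n = 2 each) and was higher too. Id2, an inhibitor of E proteins, and Prdm1 (Blimp-1), which drives effector differentiation, were higher by log2 changes of 2.76 ± 0.23 and 2.85 ± 0.27.

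Exceptions on the effector side were Myb (24.5 and 18.1 CPM in eTreg, 58.7 and 50.4 in cTreg, -1.36 ± 0.21) and Ikzf3 (Aiolos; -0.35 ± 0.12), both lower, although Ikzf3 was not called without eTreg library 2, cTreg library 1 or cTreg library 2 (adjusted p = 0.20, 0.13 and 0.090). Among quiescence factors, the chromatin organiser gene Satb1 (chromosome 17, 51736187 to 51833290) had 66.4 and 64.5 CPM in eTreg and 771 and 781 in cTreg (-3.57 ± 0.15, adjusted p = 6.6e-12). Bach2, a repressor that competes with AP-1, had 61.8 and 53.2 CPM in eTreg and 279 and 268 in cTreg (-2.25 ± 0.11), and Lef1, a Wnt pathway factor, 141 and 135 in eTreg and 463 and 458 in cTreg. Myc, a growth regulator, was on the same side, at 65.1 and 58.5 CPM in eTreg and 192 and 195 in cTreg (-1.65 ± 0.12, adjusted p = 4.6e-09). Tcf7 (TCF-1) and Klf2, an activator of S1pr1, were lower by log2 changes of -0.54 ± 0.11 and -2.06 ± 0.42. Ets1, a factor of resting T cells, was not called (2352 and 2383 CPM in eTreg, 2664 and 2717 in cTreg).

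The AP-1 and IRF family itself held changes in both directions. Of 22 tested relatives of BATF, 6 were higher (27.3%), 3 were lower (13.6%) and 13 were not called. The shares over all tested genes were 18.8% higher and 12.3% lower. The median log2 change of the family was 0.09. Batf (chromosome 12, 85686669 to 85709087) had 112 and 151 CPM in eTreg and 33.3 and 35.0 in cTreg (1.94 ± 0.27, adjusted p = 1.6e-05). Irf4 had 151 and 143 CPM in eTreg and 40.9 and 48.9 in cTreg (1.71 ± 0.13, adjusted p = 9.8e-09). Irf5, an IRF of innate signalling, had 48.3 and 46.5 CPM in eTreg and 9.69 and 7.73 in cTreg (2.44 ± 0.21), and Mafg and Irf8 were the other called members on that side besides Maf. BATF's dimer partners were not called: Junb had 416 and 508 CPM in eTreg and 262 and 299 in cTreg (adjusted p = 0.47), and Jun 64.8 and 62.8 in eTreg and 81.7 and 92.9 in cTreg (adjusted p = 0.71), but both were called in the fit of the 4 libraries (7.2e-05 and 0.00015). Bach2, Irf9 and Nfe2l2 (NRF2, the oxidative stress factor) were lower. Irf8 was not called whichever of the 4 libraries was left out (adjusted p of 0.080 to 0.17), nor was Irf9 without eTreg library 2, cTreg library 1 or cTreg library 2 (0.13, 0.098 and 0.084).

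Promoter sequence was read for the letters that AP-1 dimers bind. RefSeq windows of 250 bases before the gene start (build GRCm38.p6, the mm10 assembly) were at hand for 9339 of the 12227 tested genes, and a gene counted if any of its windows held the letters. TGANTCA, which reads the same on both strands, was in 5.15% of all these genes. The share was 7.26% of the 1708 genes called higher, 9.24% of the 628 called at least 4-fold higher, 5.69% of the 1159 called lower, 6.87% of the 364 called at least 2-fold lower and 4.5% of the 6472 not called. TGTTTAC, a forkhead motif read on both strands, was in 2.87% of genes called higher, 3.66% of those at least 4-fold higher, 2.93% of those called lower, 3.85% of those at least 2-fold lower and 2.73% of all. CTTTGAT, the TCF and LEF motif on both strands, was in 2.34% of genes called higher, 1.59% of those at least 4-fold higher, 3.11% of those called lower, 3.85% of those at least 2-fold lower and 2.72% of all. Among the 1066 genes called at least 2-fold higher, the shares were 7.88% for TGANTCA, 3.19% for TGTTTAC and 2.53% for CTTTGAT. These have the same cut as the shares of genes at least 2-fold lower. For the composite element of AP-1 and IRF (AICE), only a form with a fixed spacer between the IRF and AP-1 letters was searched. Other forms of the element were not searched, so their presence in these windows is not known. The form searched, read on both strands and overlapping TGANTCA, was in 0 of the 1708 and in 6 of all 9339. These shares are descriptions, were not tested, and say nothing of binding.

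The windows of 4 genes described here that were at least 4-fold higher in eTreg are shown, because each holds these letters: Srxn1 with 2 matches, 102 and 45 bases before the gene start, Havcr2 with 1 at 200 bases, Gzmb with 1 at 58 bases and Prdm1 with 1 at 48 bases. They are printed 5′ to 3′ on the strand of the gene, with the TGANTCA letters in capitals. The Prdm1 window lies before a RefSeq start inside the longer span that the annotation gives for the gene. Among named genes with a window, 12 of 62 at least 4-fold higher held the letters, as did 3 of 18 at least 4-fold lower. Named genes were chosen by rank and with earlier results known, so these are not shares of all genes.
Srxn1 (chr2:152105274-152105523, plus strand): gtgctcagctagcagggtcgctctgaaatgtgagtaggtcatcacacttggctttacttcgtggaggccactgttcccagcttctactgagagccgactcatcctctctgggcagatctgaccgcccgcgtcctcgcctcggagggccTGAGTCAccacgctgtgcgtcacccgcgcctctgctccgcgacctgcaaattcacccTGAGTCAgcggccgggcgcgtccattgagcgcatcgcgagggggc
Havcr2 (chr11:46454681-46454930, plus strand): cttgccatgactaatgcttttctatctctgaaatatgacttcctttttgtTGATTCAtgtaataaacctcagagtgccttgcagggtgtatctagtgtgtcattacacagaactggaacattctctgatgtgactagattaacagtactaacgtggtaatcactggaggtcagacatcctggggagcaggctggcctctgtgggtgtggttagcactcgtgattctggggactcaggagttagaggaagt
Gzmb (chr14:56262335-56262584, minus strand): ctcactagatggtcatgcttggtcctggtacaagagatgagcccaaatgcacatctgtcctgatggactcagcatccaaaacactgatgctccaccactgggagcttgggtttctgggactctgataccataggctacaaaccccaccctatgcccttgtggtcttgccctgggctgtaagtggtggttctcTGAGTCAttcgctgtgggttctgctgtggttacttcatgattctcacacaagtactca
Prdm1 (chr10:44458749-44458998, minus strand): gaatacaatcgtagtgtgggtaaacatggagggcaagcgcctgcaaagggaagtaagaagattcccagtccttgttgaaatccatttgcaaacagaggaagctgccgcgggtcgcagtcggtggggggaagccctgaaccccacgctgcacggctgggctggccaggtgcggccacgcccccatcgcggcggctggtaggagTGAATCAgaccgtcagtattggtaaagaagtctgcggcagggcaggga

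Inhibitory receptor genes were higher or not called. Of 17 tested co-inhibitory receptor genes, 12 were higher in eTreg, 5 were not called and none was lower (1 at an unadjusted p below 0.05, 0 with DESeq2), with a median log2 change of 1.41. Klrg1, which binds cadherins, had 64.0 and 68.8 CPM in eTreg and 0.0940 and 0 in cTreg, a count ratio of 1376 (95% exact interval 247 to 54394, counting error only). Tigit, which competes with CD226 for nectin ligands, had 208 and 295 CPM in eTreg and 1.03 and 0.991 in cTreg (log2 change of 7.94 ± 0.63). Pdcd1 (PD-1) had 313 and 354 CPM in eTreg and 19.1 and 22.9 in cTreg (3.99 ± 0.36), Lag3, which binds MHC class II, 157 and 264 in eTreg and 6.21 and 11.3 in cTreg (4.59 ± 0.54), and Cd101 65.3 and 71.8 in eTreg and 36.6 and 34.6 in cTreg. Cd5, Cd96 and Btla were not called. The fit of the 4 libraries called 3 members lower, Cd5 (adjusted p = 0.036) and Cd96 (0.013) among them, and the fit of the 8 sorted libraries 1, Cd5 (0.031).

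Costimulatory receptors followed in part. Of 20 tested members, 11 were higher, 2 were lower and 7 were not called, with a median log2 change of 0.57. Icos had 512 and 548 CPM in eTreg and 53.2 and 56.7 in cTreg (3.27 ± 0.17, adjusted p = 1.2e-10). In the TNF receptor family, Tnfrsf8 (CD30) had 20.5 and 23.2 CPM in eTreg and 0.376 and 0.396 in cTreg (5.79 ± 0.51), Tnfrsf1b (TNFR2) 736 and 891 in eTreg and 166 and 191 in cTreg (2.19 ± 0.22), and Tnfrsf9 (4-1BB) 207 and 249 in eTreg and 65.5 and 67.4 in cTreg (1.78 ± 0.17). Another member of that family was lower: Tnfrsf25 (DR3), the receptor of TL1A, had 130.1 and 130.0 CPM in eTreg and 172 and 168 in cTreg (-0.39 ± 0.14, adjusted p = 0.043). Cd28, the main costimulator of naive cells, had 364 and 335 CPM in eTreg and 291 and 264 in cTreg and was not called (adjusted p = 0.084; 0.00064 in the fit of the 4 libraries). The call of Tnfrsf25 was lost whichever of the 4 libraries was left out (0.12 to 0.15).

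Secreted and surface effectors were mostly higher. Of 25 tested suppressive and repair factors, 18 were higher, 3 were lower and 4 were not called, with a median log2 change of 2.45. In Teff over Tnaive the median of this list was larger, 4.45. The cytokine gene Il10 had 19.4 and 21.2 CPM in eTreg and 0.0940 and 0 in cTreg, a count ratio of 421 (75.2 to 16667). Penk, the enkephalin precursor gene, had 164 and 161 CPM in eTreg and 7.43 and 9.81 in cTreg (4.24 ± 0.28), and Fgl2, a secreted ligand of an inhibitory Fc receptor, 106 and 106 in eTreg and 3.10 and 3.47 in cTreg (5.01 ± 0.40). Tnfsf11 (RANKL) had 85.2 and 93.3 CPM in eTreg and 12.4 and 12.5 in cTreg (2.84 ± 0.17), and Areg, the tissue repair factor amphiregulin, 5.64 and 8.35 in eTreg and 0.282 and 0.892 in cTreg (3.57 ± 0.84, adjusted p = 0.0031). The TGF-beta machinery did not move as one. Itgb8, whose integrin releases active TGF-beta, had 58.8 and 70.8 CPM in eTreg and 9.03 and 8.32 in cTreg (2.90 ± 0.35), and its partner Itgav 172 and 186 in eTreg and 78.8 and 68.7 in cTreg (1.28 ± 0.16). Tgfb1 itself had 239.7 and 251 CPM in eTreg and 227 and 233 in cTreg and was not called (adjusted p = 0.71), while Lrrc32, given above, was lower.

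Genes of helper T cell cytokines were also detected more in eTreg, at low levels. Of 20 tested members, 15 were higher and 5 were not called, and none was lower (1 at an unadjusted p below 0.05, 0 with DESeq2), with a median log2 change of 4.25, or 2.63 with genes at 0 set to their bound. Ccl5, a chemokine gene, had 39.7 and 39.8 CPM in eTreg and 0.376 and 0.594 in cTreg (6.33 ± 0.43), and Tnfsf14 (LIGHT) 62.2 and 64.9 in eTreg and 3.57 and 3.76 in cTreg (4.11 ± 0.26). Ifng, the cytokine of type 1 responses, had 8.51 and 6.05 CPM in eTreg and 0.470 and 0.198 in cTreg (4.39 ± 0.65). Il4, of type 2 responses, had 3.82 and 5.09 CPM in eTreg and 0 and 0.0991 in cTreg, a count ratio of 92.3 (16.2 to 3686). Ccl1, a ligand of CCR8, had 2.01 and 2.02 CPM in eTreg and 0 reads in cTreg (at least 13.9-fold). Il2, the T cell growth factor that Treg take up and hardly make, had 0.191 and 0.288 CPM in eTreg and 0 reads in cTreg (at least 1.65-fold), and was not called whichever of the 4 libraries was left out (adjusted p of 0.057 to 0.15). The lymphotoxin gene Ltb was not called, at 960.4 and 1054 CPM in eTreg and 961 and 961 in cTreg. The fits of the 4 and of the 8 sorted libraries each called 1 member lower.

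Genes of homing to tissue and of recirculation were called in opposite directions. Of 19 tested receptors for tissue chemokines and related signals, 15 were higher, 1 was lower and 3 were not called, with a median log2 change of 3.62. Of 18 genes linked to recirculation through lymphoid organs, which include the gate gene Ccr7, 13 were lower and 5 were not called, with a median of -1.71, and none was higher (0 also at an unadjusted p below 0.05 and with DESeq2). Their lowest log2 change, -6.81, is the value given above for Igfbp4, and the list was written with earlier results of these data known. Cxcr3, the receptor of interferon-induced chemokines, had 153 and 175 CPM in eTreg and 2.26 and 2.58 in cTreg (6.08 ± 0.35). Ccr4, a receptor linked to skin, had 183 and 164 CPM in eTreg and 5.27 and 6.64 in cTreg (4.86 ± 0.33), and Ccr8, found on tissue Treg, 54.6 and 70.2 in eTreg and 4.61 and 5.55 in cTreg (3.62 ± 0.28). Ccr6, the receptor of CCL20, had 87.6 and 77.0 CPM in eTreg and 10.3 and 9.21 in cTreg (3.07 ± 0.25). Cxcr5, which leads cells to follicles, had 145 and 159 CPM in eTreg and 21.4 and 20.1 in cTreg (2.87 ± 0.23), and Cxcr6 61.8 and 50.6 in eTreg and 1.03 and 1.59 in cTreg.

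The exit receptor S1pr1 had 174 and 164 CPM in eTreg and 706 and 729.7 in cTreg (-2.09 ± 0.13, adjusted p = 7.1e-10), and the related S1pr4 190.2 and 192 in eTreg and 311 and 283 in cTreg (-0.64 ± 0.19), a fall not called without eTreg library 1, eTreg library 2 or cTreg library 1 (adjusted p = 0.062, 0.062 and 0.090). Il7r, the receptor of the survival cytokine of resting T cells, was not called (336 and 265 CPM in eTreg, 208 and 191 in cTreg, adjusted p = 0.13), although it was in the fits of the 4 (0.00038) and of the 8 sorted libraries (0.0096), the 1 recirculation gene they called higher. Of 25 tested integrin and adhesion genes, 13 were higher, 6 were lower and 6 were not called, with a median log2 change of 0.94. Itgae (CD103), which binds epithelial E-cadherin, had 395 and 379 CPM in eTreg and 15.3 and 18.7 in cTreg (4.51 ± 0.21), and Itgb1 796 and 844 in eTreg and 103 and 116 in cTreg (2.91 ± 0.14). Integrin alpha chains that pair with beta 1 did not share a direction: Itga2, the chain of a collagen receptor, had 12.3 and 9.51 CPM in eTreg and 1.5 and 1.09 in cTreg (3.06 ± 0.28), but Itga6, the chain of a laminin receptor, 169 and 154 in eTreg and 416 and 408 in cTreg (-1.35 ± 0.12), and Itga5, the chain of a fibronectin receptor, 12.2 and 9.22 in eTreg and 23.9 and 20.4 in cTreg (-1.05 ± 0.21). Itga4 and Itgb7, which form the gut homing integrin, were not called, although Itgb7 was in the fit of the 4 libraries (adjusted p = 0.0002).

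Guidance receptor and ligand genes were also called in both directions. Of 14 tested neuropilin, semaphorin and plexin genes, 9 were higher, 3 were lower and 2 were not called, with a median log2 change of 1.18. Sema6d had 42.1 and 31.9 CPM in eTreg and 0.470 and 0.198 in cTreg (6.73 ± 0.51), and Sema4c 7.55 and 10.8 in eTreg and 0.188 and 0.198 in cTreg (5.49 ± 0.44). Sema4a, which encodes a ligand of neuropilin-1, had 34.1 and 30.2 CPM in eTreg and 164 and 151 in cTreg (-2.29 ± 0.19, adjusted p = 2.8e-08). The neuropilins parted: beside the higher Nrp1, Nrp2 (chromosome 1, 62703285 to 62818695) had 0.191 and 0.0960 CPM in eTreg and 6.96 and 8.52 in cTreg, a count ratio of 53.7 in favour of cTreg (18.1 to 263). The plexin genes Plxnd1 (87.7 and 91.5 CPM in eTreg, 32.3 and 38.3 in cTreg) and Plxnb2 (16.1 and 26 CPM in eTreg, 2.16 and 1.88 in cTreg) were higher.

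Receptor genes for soluble cytokines were called in both directions. Of 28 tested genes for common gamma chain, IL-6 family, interferon and TGF-beta receptors and their ligands, 7 were higher, 9 were lower and 12 were not called, with a median log2 change of -0.01. Il9r, the receptor of IL-9, had 79.3 and 65.9 CPM in eTreg and 0.752 and 0.594 in cTreg (6.72 ± 0.54, adjusted p = 2.3e-08). Il23r, a receptor of type 17 cells, had 3.35 and 2.98 CPM in eTreg and 0 reads in cTreg (at least 21.8-fold), and Il12rb1, shared by the IL-12 and IL-23 receptors, 103 and 95.4 in eTreg and 26.6 and 31.9 in cTreg (1.77 ± 0.21). Il10ra had 204 and 179.8 CPM in eTreg and 72.6 and 75.2 in cTreg (1.38 ± 0.16).

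Receptors for IL-6, IL-4 and interferon-gamma were lower. Il6ra had 198 and 179 CPM in eTreg and 445 and 423 in cTreg (-1.20 ± 0.10, adjusted p = 3.3e-08), Il4ra 194 and 179 in eTreg and 477 and 438 in cTreg (-1.29 ± 0.27, adjusted p = 0.0011), and Ifngr2 28.1 and 25.1 in eTreg and 91.7 and 90.1 in cTreg (-1.77 ± 0.19). Il17ra, the receptor of IL-17A, had 206 and 188 CPM in eTreg and 447 and 401 in cTreg (-1.11 ± 0.13). The common gamma chain Il2rg was not called, at 708 and 697 CPM in eTreg and 677 and 707 in cTreg. Signal transducers below the receptors changed less: of 22 tested JAK, STAT and SOCS genes, 3 were higher, 2 were lower and 17 were not called, with a median of -0.08. Socs3, the feedback inhibitor of IL-6 signalling, had 148 and 139 CPM in eTreg and 289 and 296 in cTreg (-1.03 ± 0.21), and Jak1 901 and 918 in eTreg and 1233 and 1235 in cTreg (-0.44 ± 0.09). Jak2 had 277 and 298 CPM in eTreg and 186 and 183 in cTreg (0.64 ± 0.15), and Socs5 was also higher.

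Several receptor chains of the IL-1 family were far higher in eTreg, while the downstream genes tested were lower or not called. Of 13 tested members, 6 were higher, 1 was lower and 6 were not called, with a median log2 change of 0.31. Il1rl1 (ST2), the receptor of the alarmin IL-33, had 121 and 101 CPM in eTreg and 2.82 and 4.06 in cTreg (5.02 ± 0.44). The IL-18 receptor chains Il18rap and Il18r1 had 75.4 and 76.7 and 354 and 332 CPM in eTreg, against 2.44 and 2.08 and 68.8 and 77.9 in cTreg (5.06 ± 0.21 and 2.22 ± 0.19). The decoy receptor Il1r2 had 45.2 and 87.5 CPM in eTreg and 0.376 and 0.297 in cTreg (7.57 ± 0.71), and the signalling receptor Il1r1 6.31 and 5.28 in eTreg and 0 and 0.0991 in cTreg, a count ratio of 120.1 (21.2 to 4784). The adaptor gene Myd88 was not called, and Irak3, an inhibitory kinase of the pathway, was lower (6.50 and 6.05 CPM in eTreg, 15.8 and 14.0 in cTreg, -1.25 ± 0.24).

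**Figure D3:**
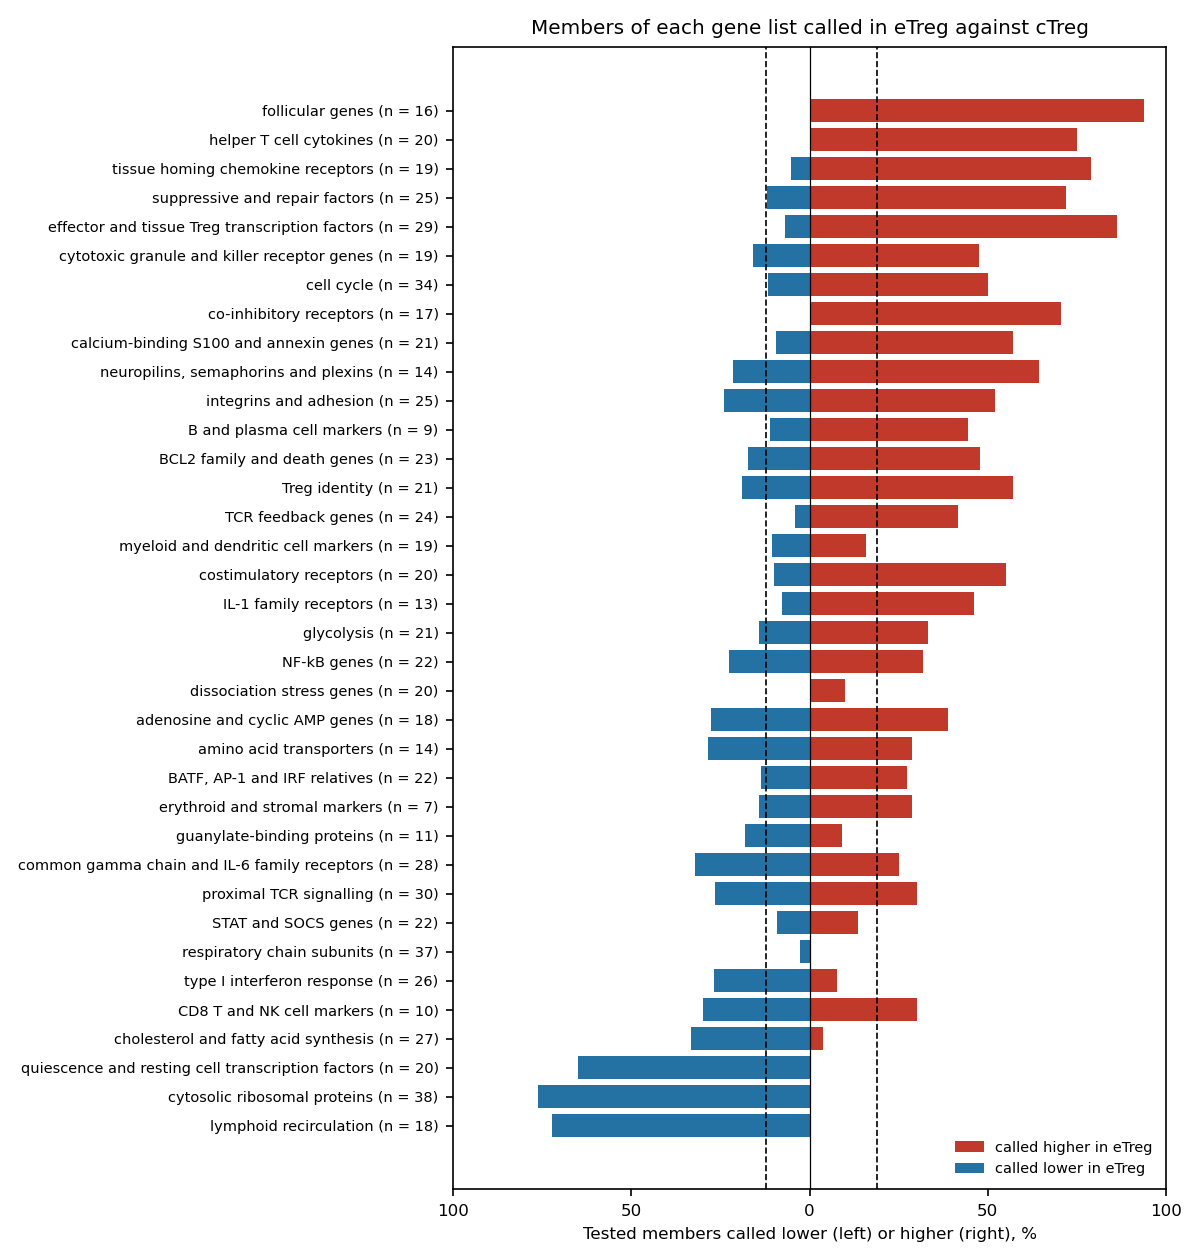
Share of the tested members of each gene list called higher (right) or lower (left) in eTreg, in percent, with lists ordered by the median log2 change of their members from top to bottom. Dashed lines mark the shares over all 12227 tested genes, 18.8% higher and 12.3% lower, and the number of tested members is given beside each list.

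Genes of antigen receptor signalling were called in both directions. Of 30 tested proximal TCR signalling genes, 9 were higher, 8 were lower and 13 were not called, with a median log2 change of -0.05. Nfatc1, a calcium-driven factor, had 641 and 738 CPM in eTreg and 196 and 208 in cTreg (1.77 ± 0.18, adjusted p = 2.6e-07), and Ptpn22, a phosphatase that restrains the receptor, 405 ± 11.6 in eTreg and 175 ± 0.106 in cTreg (SD, n = 2 each; log2 change of 1.21 ± 0.12). The Tec family kinase gene Txk had 27.2 and 24.6 CPM in eTreg and 138 and 138 in cTreg (-2.41 ± 0.18). Prkcq (PKC-theta) had 307 and 314 CPM in eTreg and 559 and 575 in cTreg (-0.87 ± 0.08), and Dgka, a lipid kinase that damps diacylglycerol signals, 1041 and 996 in eTreg and 1944 and 1843 in cTreg (-0.90 ± 0.09). Lck was not called. Of 24 feedback genes induced by the receptor, 10 were higher, 1 was lower and 13 were not called, with a median of 0.60. Egr2, which limits activation, had 105 and 151 CPM in eTreg and 40.3 and 36.5 in cTreg (1.74 ± 0.20), and Cd83 226 and 271 in eTreg and 26.4 and 30.8 in cTreg (3.12 ± 0.23), while Dusp2 and Rgs1 were not called. The count of 10 higher feedback genes was 5 without eTreg library 2 or cTreg library 1 and 6 without cTreg library 2, and the fit of the 4 libraries called 16 higher and 5 lower, Dusp2 and Rgs1 among those called. Of 20 genes of dissociation stress, which also respond to handling, 2 were higher, 0 were lower and 18 were not called, with 1 lower at an unadjusted p below 0.05 and 0 with DESeq2; the 2 became 0 without eTreg library 1, eTreg library 2 or cTreg library 2 and 1 without cTreg library 1, and the fit of the 4 libraries called 7 higher and 4 lower.

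NF-kB genes changed by smaller steps. Of 22 tested members, 7 were higher, 5 were lower and 10 were not called, with a median log2 change of 0.21. The alternative pathway subunits Relb and Nfkb2 had 127 and 158 and 235 and 262 CPM in eTreg, against 74.2 and 80.9 and 148 and 148 in cTreg (0.88 ± 0.25 and 0.75 ± 0.21). Map3k14 (NIK), the kinase that opens that pathway, was lower, at 80.6 and 83.8 CPM in eTreg and 126 and 126 in cTreg (-0.62 ± 0.20, adjusted p = 0.023), as was Ikbkb, a kinase of the canonical pathway, at 258 and 229.7 CPM in eTreg and 402 and 352 in cTreg (-0.63 ± 0.11). Without 1 library, 2 to 4 members were called higher and 2 lower. Relb, Nfkb2 and Map3k14 were not called without eTreg library 2 (adjusted p = 0.14, 0.11 and 0.081) or cTreg library 1 (0.095, 0.064 and 0.082), nor Nfkb2 and Map3k14 without cTreg library 2 (0.061 and 0.082), nor Map3k14 without eTreg library 1 (0.10).

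Survival genes of the same family were called in opposite directions. Of 23 tested BCL2 family and death genes, 11 were higher, 4 were lower and 8 were not called, with a median log2 change of 0.78. Bcl2 (chromosome 1, 106538178 to 106714274), the founding anti-apoptotic gene, had 198 and 163 CPM in eTreg and 823 and 787 in cTreg (-2.16 ± 0.17, adjusted p = 1.5e-08). Its antagonist Bcl2l11 (BIM) was lower too, at 52.1 and 53.5 CPM in eTreg and 165 and 147 in cTreg (-1.56 ± 0.13, adjusted p = 2.6e-08), and so was Mcl1 (717 and 673 CPM in eTreg, 988 and 945 in cTreg, -0.48 ± 0.09). Other anti-apoptotic members were higher: Bcl2a1b had 45.6 and 54.8 CPM in eTreg and 11.4 and 11.2 in cTreg (2.15 ± 0.18), although reads of the near-identical Bcl2a1 copies can be shared, and Bcl2l1 (BCL-XL) had 63.0 and 60.9 in eTreg and 33.8 and 38.0 in cTreg (0.79 ± 0.14). The pro-apoptotic Pmaip1 (NOXA) had 21.1 and 25.2 CPM in eTreg and 5.36 and 5.25 in cTreg (2.12 ± 0.22). The inflammatory caspase genes Casp1 and Casp4 were higher by log2 changes of 2.24 ± 0.27 and 2.68 ± 0.24, whereas the initiator Casp8 was lower (-0.86 ± 0.13).

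A list of S100 and annexin genes, to which cytoskeletal and membrane genes such as Ahnak, Crip1 and Emp3 were added, was mostly higher. Of its 21 tested members, 12 were higher, 2 were lower and 7 were not called, with a median log2 change of 1.24. S100a4 (chromosome 3, 90603771 to 90606045), linked to cell motility, had 156 and 142 CPM in eTreg and 0.188 and 0.594 in cTreg (8.55 ± 0.39, adjusted p = 2.8e-11). S100a6 had 90.0 and 94.5 CPM in eTreg and 1.97 and 2.87 in cTreg (5.25 ± 0.26), S100a11 48.7 and 57.1 in eTreg and 5.55 and 4.06 in cTreg (3.46 ± 0.24), and Anxa2, whose product binds that of Ahnak, 55.8 and 75.7 in eTreg and 13.9 and 14.0 in cTreg (2.24 ± 0.23). The 2 lower members are neither S100 nor annexin genes: they were Crip1, a LIM domain gene (-0.46 ± 0.12), and Emp3, a membrane protein gene (-0.69 ± 0.18), the second not called without cTreg library 2 (adjusted p = 0.052).

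Cell cycle genes were called in both directions. Of 34 tested members, 17 were higher, 4 were lower and 13 were not called, with a median log2 change of 1.42, while their summed level was 1778 and 1761 CPM in eTreg and 2023 and 1996 in cTreg. Mki67, the proliferation marker, had 87.0 and 84.4 CPM in eTreg and 8.46 and 12.6 in cTreg (3.03 ± 0.53, adjusted p = 1.9e-04), and Cdkn2c, a CDK inhibitor, 17.8 and 21.6 in eTreg and 1.69 and 3.07 in cTreg (3.05 ± 0.26). Mcm6, a subunit of the replicative helicase, had 157 and 203 CPM in eTreg and 94.3 and 94.1 in cTreg (0.93 ± 0.15), but the subunits Mcm2 (71.8 and 77.8 CPM in eTreg, 79.8 and 93.3 in cTreg) and Mcm5 were not called. Among cyclin genes of early cycle, Ccnd2 was lower, with 680.4 and 615 CPM in eTreg and 1075 and 1053 in cTreg (-0.72 ± 0.14), and Ccnd3 and Ccne1 were too, while Ccne2 was not called (1.72 and 2.21 CPM in eTreg, 1.22 and 1.19 in cTreg, adjusted p = 0.3), and Cdkn2d, another CDK inhibitor, had 28.9 and 28.2 in eTreg and 79.2 and 83.9 in cTreg (-1.51 ± 0.10). The 17 higher genes became 10 without eTreg library 2, 7 without cTreg library 1 and 11 without cTreg library 2, and the 4 lower ones 2 without eTreg library 1, eTreg library 2 or cTreg library 1. Ccnd3 was not called whichever library was left out (adjusted p of 0.055 to 0.23), nor Ccne1 without eTreg library 1, eTreg library 2 or cTreg library 1 (0.14, 0.068 and 0.21).

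Most of the cytosolic ribosomal protein genes tested were lower. Of 38 tested cytosolic ribosomal protein genes, 29 were lower in eTreg and 9 were not called, with a median log2 change of -0.80 and a range of -1.16 to 0.02, and none was higher (0 also at an unadjusted p below 0.05 and with DESeq2). Their summed level was 10867 and 11701 CPM in eTreg and 19537 and 20564 in cTreg. Rpl4 had 1301 and 1377 CPM in eTreg and 2267 and 2440.3 in cTreg (-0.81 ± 0.08), and Rps20 138 and 148 in eTreg and 288 and 311 in cTreg (-1.07 ± 0.11). Many of these genes have processed copies in the genome, and how reads that match several copies were counted is unknown. The elongation factor genes Eef2 and Eef1a1 and the ribosomal scaffold gene Gnb2l1 (RACK1) had log2 changes of -0.70 ± 0.19, -0.61 ± 0.11 and -0.89 ± 0.16. They were named for being among the largest CPM losses, so their direction was fixed by that choice. No list of other translation genes was read. Mitochondrial respiration genes gave a contrast: of 37 tested nuclear-encoded subunits, 0 were higher, 1 was lower and 36 were not called, with a median of -0.13. At an unadjusted p below 0.05, 1 was higher and 1 lower, and DESeq2 called 0 higher and 2 lower, the fit of the 4 libraries 1 higher and 7 lower. The lower gene was Atp5b (567 and 596 CPM in eTreg, 713 and 744 in cTreg, -0.33 ± 0.08). Teff against Tnaive gave a median log2 change of -0.75 for the ribosomal genes and 0.01 for the respiratory ones.

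Glycolysis was mixed at the level of single enzymes. Of 21 tested genes, 7 were higher, 3 were lower and 11 were not called, with a median log2 change of 0.27. Tpi1 had 57.8 and 71.6 CPM in eTreg and 26 and 28.4 in cTreg (1.25 ± 0.14), and the lactate exporter gene Slc16a3 15.6 and 21.4 in eTreg and 9.22 and 9.41 in cTreg (0.99 ± 0.20). Pdk1, a pyruvate dehydrogenase kinase gene, had 99.7 and 93.9 CPM in eTreg and 252 and 268 in cTreg (-1.42 ± 0.10, adjusted p = 5.0e-09), and Ldha 257 and 274 in eTreg and 370.1 and 351 in cTreg (-0.44 ± 0.09). Of 27 tested genes of cholesterol and fatty acid synthesis, 1 was higher, 9 were lower and 17 were not called, with a median of -0.39. The sterol enzyme gene Sqle was lower (12.9 and 11.1 CPM in eTreg, 26.4 and 34.2 in cTreg), while the fatty acid genes Acly and Fasn were not called. The count of 9 lower genes was 5 without eTreg library 2 or cTreg library 2, none was called higher whichever of the 4 libraries was left out, and the fit of the 4 libraries called 15 lower and 3 higher.

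Transport and nucleotide genes held some of the largest single changes. Of 14 tested amino acid transporter genes, 4 were higher, 4 were lower and 6 were not called. Slc7a10 (chromosome 7, 35186385 to 35201114), a carrier of small neutral amino acids, had 34.9 and 35.8 CPM in eTreg and 0.0940 and 0 in cTreg, a count ratio of 733 (131 to 28981). Slc7a5, the main carrier of large neutral amino acids, had 42.2 and 39.4 CPM in eTreg and 74.7 and 79.9 in cTreg (-0.92 ± 0.17). Of 18 tested adenosine and cyclic AMP genes, 7 were higher, 5 were lower and 6 were not called, with a median log2 change of 0.18. Nt5e (CD73), which makes extracellular adenosine, had 609 and 682 CPM in eTreg and 179 and 178 in cTreg (1.85 ± 0.19), and the adenosine receptor gene Adora2a 124 and 136 in eTreg and 49.8 and 50.1 in cTreg (1.38 ± 0.24).

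Ada, which removes adenosine, was lower, at 3.25 and 3.65 CPM in eTreg and 12.2 and 13.3 in cTreg (-1.88 ± 0.19). The adenylate cyclase genes went opposite ways: Adcy6 (chromosome 15, 98589973 to 98610076) had 4.97 and 4.03 CPM in eTreg and 131 and 119 in cTreg (-4.79 ± 0.20, adjusted p = 6.6e-12), and Adcy7 683 and 635 in eTreg and 434 and 409.8 in cTreg (0.64 ± 0.11, adjusted p = 1.6e-04). Phosphodiesterase genes, whose products break down cyclic AMP, also differed, with Pde7a higher (121 and 115 CPM in eTreg, 58.8 and 55.0 in cTreg) and Pde3b lower (12.1 and 10.4 CPM in eTreg, 28.3 and 25.6 in cTreg). The count of 5 lower genes of this list was 3 without eTreg library 2, cTreg library 1 or cTreg library 2, and that of 4 lower amino acid transporter genes was 2 without eTreg library 2.

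Interferon response genes were called more often lower than higher. Of 26 tested type I interferon genes, 2 were higher (7.69%), 7 were lower (26.9%) and 17 were not called. The shares over all tested genes were 18.8% higher and 12.3% lower. The median log2 change of the list was -0.30. Usp18, a feedback inhibitor of the pathway, had 25.1 and 21.8 CPM in eTreg and 76.4 and 69.1 in cTreg (-1.63 ± 0.18). The antiviral synthetase genes diverged, with Oas2 at 3.82 and 4.13 CPM in eTreg and 33.1 and 27.1 in cTreg (-2.92 ± 0.44) and Oas1a at 32.1 and 30.2 in eTreg and 13 and 11.4 in cTreg (1.35 ± 0.26), although Oas copies can share reads. The guanylate-binding proteins, close copies of each other, showed 1 higher, 2 lower and 8 uncalled members of 11: Gbp2b had 40.9 and 27.7 CPM in eTreg and 5.27 and 5.55 in cTreg (2.66 ± 0.26), and Gbp11 0.765 and 0.576 in eTreg and 5.83 and 5.35 in cTreg (-3.04 ± 0.27). The count of 2 higher interferon genes was 1 without eTreg library 1 or cTreg library 2 and 6 in the fit of the 4 libraries. The count of 7 lower ones was 3 without eTreg library 2 and 4 without cTreg library 1 or cTreg library 2, while the fit of the 4 libraries called 14. The count of 2 lower guanylate-binding genes was 1 without cTreg library 2.

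Genes named for follicular T cells had the largest share called higher of the 37 lists, 93.8%, but the lists were written with earlier results of these data known. Of 16 tested members, 15 were higher and 1 was not called, with a median log2 change of 4.35, and none was lower (0 also at an unadjusted p below 0.05 and with DESeq2). The median of this list was larger, 6.21, in Teff over Tnaive. Tox2 had 77.8 and 92.2 CPM in eTreg and 0.188 and 0.396 in cTreg (8.14 ± 0.73), Angptl2, a secreted glycoprotein gene, 87.5 and 106 in eTreg and 1.88 and 2.28 in cTreg (5.54 ± 0.45), and Gpm6b, a membrane glycoprotein gene, 82.3 and 116 in eTreg and 3.10 and 4.46 in cTreg (4.71 ± 0.25). The list shares Maf, Icos, Pdcd1 and Cxcr5 with lists above. Of 19 tested cytotoxic granule and killer receptor genes, 9 were higher, 3 were lower and 7 were not called, with a median of 1.46. Gzmb, encoding granzyme B, had 22.6 and 17.4 CPM in eTreg and 0.282 and 0.693 in cTreg (5.34 ± 0.54). The pore-forming gene Prf1 was lower, at 2.58 and 2.11 CPM in eTreg and 10.1 and 16.1 in cTreg (-2.47 ± 0.40, adjusted p = 9.4e-05), and so was the protease gene Ctsw (48.1 and 64.6 CPM in eTreg, 154 and 147 in cTreg).

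The change within Treg was then set against that of conventional cells, which were sorted with the corresponding gates, as the difference of both log2 changes in the same model. It was called for 663 of 12227 genes, 5.42%, of which 192 (1.57%) had a larger value in Treg and 471 (3.85%) a larger value in conventional cells. Without cTreg library 2 it was called for 426 genes, and the 192 became 105 to 124 without eTreg library 2, either cTreg library, Teff library 1 or either Tnaive library. The Teff libraries also held more of other cells' markers than the Treg libraries. The summed CPM of the 19 myeloid and dendritic markers was 686 and 294 in Teff and 123 and 114 in Tnaive, with Siglech, a plasmacytoid dendritic cell gene, at 92.3 and 20 in Teff. That of the 10 CD8 T and NK markers was 393 and 289 in Teff and 77.3 and 80.4 in Tnaive. Their part in the difference was not tested. Some gene lists had a larger median log2 change in Teff over Tnaive than in eTreg over cTreg. The values were 3.48 and 1.41 for co-inhibitory receptors, 6.12 and 3.62 for tissue homing receptors, and 3.66 and 0.77 for Treg identity. For effector and tissue Treg transcription factors they were 1.76 and 2.33, the other way. These medians include fitted changes of genes with 3 reads or fewer in a group, which are not measured folds.

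Several genes with a called difference stood far higher in cTreg than in Tnaive. Il2rb had 1191 and 938 CPM in Teff and 26.4 and 25.9 in Tnaive, beside its near-equal values in eTreg and cTreg (difference of -5.31 ± 0.28, adjusted p = 1.3e-09). Ikzf2 had 277 and 442 CPM in Teff and 5.30 and 6.89 in Tnaive, so that the gain in Treg was smaller (-4.73 ± 0.39, adjusted p = 3.2e-07). Il2ra moved in opposite directions, with 69.5 and 44.0 CPM in Teff and 3.87 and 2.50 in Tnaive against its fall within Treg (-4.93 ± 0.38, adjusted p = 1.5e-07). Nrp2 also moved in opposite directions, with 6.55 and 4.93 CPM in Teff and 1.73 and 0.999 in Tnaive (adjusted p = 4.2e-07 for the difference), and the changes of Il2ra and Nrp2 within conventional cells were called (adjusted p = 4.4e-09 and 1.9e-04).

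The 8 largest called differences towards Treg were Alox8, Nav2, Abhd15, Myo10, Foxp3, Epas1, Brdt and Nacc2. Nav2, a neuron navigator gene, had 274 and 361 CPM in eTreg and 5.55 and 6.44 in cTreg, and 112 and 157 in Teff and 24.2 and 23.9 in Tnaive (3.24 ± 0.48, adjusted p = 2.1e-04). Epas1 (HIF-2 alpha), a hypoxia-responsive factor, had 22.7 and 22.1 CPM in eTreg and 5.74 and 4.76 in cTreg, but 18.8 and 16.6 in Teff and 36.4 and 38.0 in Tnaive (3.16 ± 0.29, adjusted p = 9.6e-07). Alox8, a lipoxygenase gene, had 29.2 and 31.6 CPM in eTreg and 0.846 and 0.693 in cTreg, and 2.05 and 5.29 in Teff and 1.32 and 1.60 in Tnaive (3.95 ± 0.75). In Foxp3, Myo10, Brdt and Nacc2 the change within Treg was not called. For Foxp3 the difference lay in the low values of the hCD2- cells given above, and Myo10 was at 5.28 and 5.84 CPM in Teff and 76.3 and 76.4 in Tnaive.

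Towards conventional cells the 8 largest were Adam23, Aqp9, Prr5l, Peli2, Ly6d, Pld4, Itgb8 and Adrbk2. Prr5l, which binds the mTORC2 kinase complex, had 1.72 and 2.59 CPM in eTreg and 3.86 and 4.16 in cTreg, but 14.0 and 12 in Teff and 0.102 and 0 in Tnaive. Aqp9, a water and glycerol channel gene, had 0 reads in eTreg and 0.376 and 0.892 CPM in cTreg, against 36.2 and 24.1 in Teff and 1.32 and 1.5 in Tnaive. Pld4 and Ly6d, which dendritic cells and B cells also express, had 58.4 and 17.5 and 29.0 and 7.75 CPM in the Teff libraries, higher in library 1 like the myeloid markers. Leaving out 1 library ended the called difference of Adam23 whichever was left out (adjusted p of 0.061 to 0.19), of Adrbk2 without cTreg library 1 (0.17), of Pld4 without cTreg library 2 (0.097) and of Itgb8 without Tnaive library 1 or 2 (0.051 and 0.055). In the fit of the 8 sorted libraries, the differences of Itgb8 and Pld4 were not called (0.24 and 0.22).

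**Figure D4:**
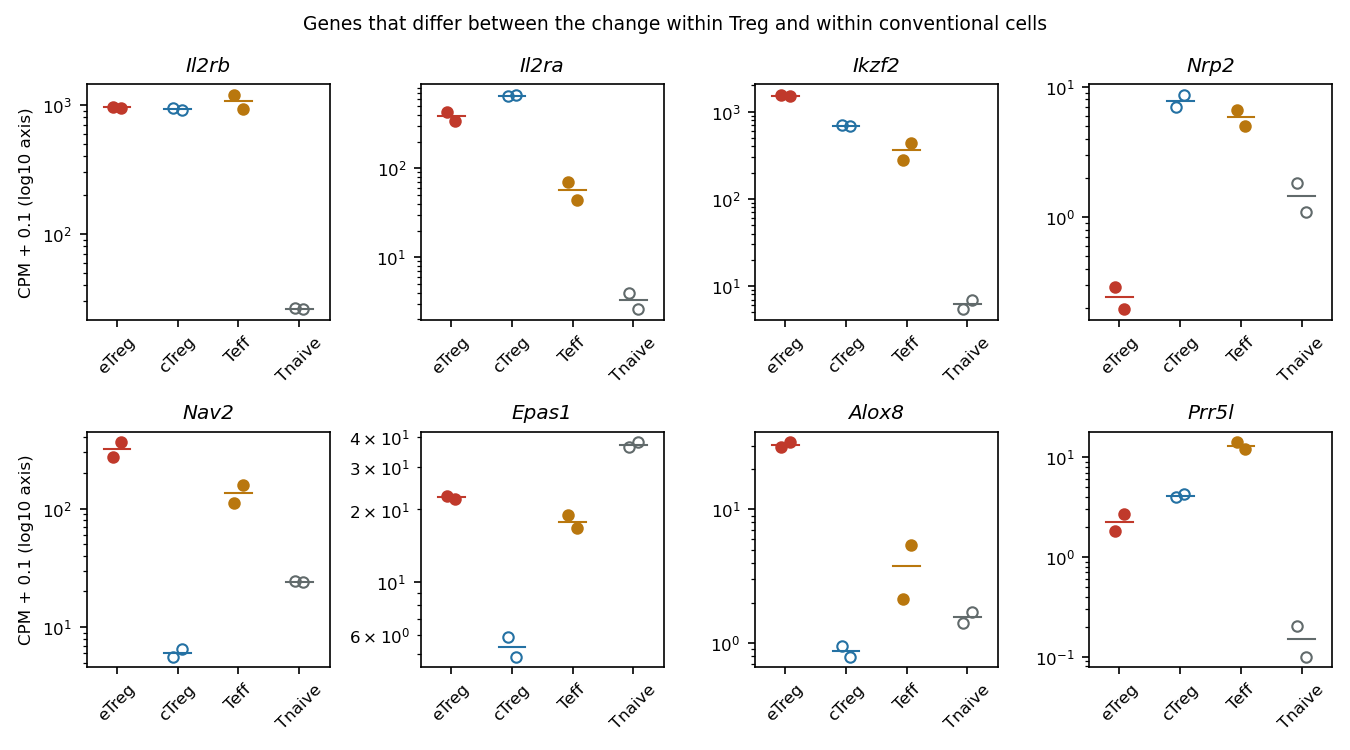
CPM on a log10 axis (y axis, 0.1 added) in each library of eTreg, cTreg, Teff and Tnaive for 8 genes with a called difference between the change within Treg and that within conventional cells. Il2rb is level between eTreg and cTreg but far lower in Tnaive than in Teff, and Il2ra and Epas1 move in opposite directions in the 2 lineages.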

How the data were processed

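The authors' deposited table held read counts per gene symbol, whole numbers not normalized, for poly(A) RNA-seq libraries. STAR 2.6.1c and mm10 are named in the submitters' processing notes; the counter and its use of strand are not given in the sources used here, so genes that overlap, lie antisense or have near-identical copies are uncertain. The labels' protocols name 2 NEBNext directional kits without saying which library had which. 4 columns matched no sample and were not used, and 0 entries named no gene.

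The counts of 26 libraries in 13 groups of 2 were fitted together with edgeR 4.0.16 in R 4.3.3 (TMM scaling, filterByExpr, robust quasi-likelihood F test, 13 residual degrees of freedom, Benjamini-Hochberg adjustment over 12227 genes, calls below 0.05), tested first on simulated counts. Tested genes held at least 99.9% of each library's counts. CPM are TMM-scaled. Errors are standard errors taken as the log2 change over the root of F, which is approximate. Log2 changes of single genes are not given where a group had 3 counts or fewer. Folds against 0 use a floor of 3 counts over the group, and ratios carry 95% exact intervals, both covering counting error only. List medians do include the fitted changes of such genes. Medians at the bound were made for eTreg over cTreg only. The difference between Treg and conventional cells was a contrast of the same fit. DESeq2 1.42.0, other scalings, filters, library sets, a 2-fold threshold and leaving out libraries were alternatives.

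Gene lists, members and tests were chosen with earlier results of these data known. Named genes are, per list, up to 6 called higher and up to 4 called lower with the smallest p and up to 3 uncalled ones with the highest CPM; the 12 largest folds in each direction with at least 5 CPM in the higher group; the 8 largest CPM differences in each direction; the 8 largest called differences between lineages in each direction; and Foxp3, Batf and the gate genes. Areg, Ccne2, Clec10a, Gapdh, Il10, Il2, Il4ra, Itgav, Jun, Klf2, Klrc2, Prdm1, Siglech and Tcf7, other-cell markers, and the lineage differences of Il2rb, Il2ra, Ikzf2 and Nrp2 were chosen after their values were seen, as were the promoters shown. Positions come from the GENCODE M21 annotation of mm10 (11784 of 12227 symbols matched), and promoters from RefSeq. Some genes that this rule names and a gate marker are not reported here.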

Additional observations from a re-analysis of the deposited data

Results flagged for a closer look

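Groups of 2 libraries are too small for a test of single libraries that stand apart. The genes below are listed because the change in eTreg over cTreg differed from that in Teff over Tnaive, by the contrast of both log2 changes in the same edgeR fit, with p adjusted over 12227 genes. Called differences made up 5.42% of tested genes.

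Among genes of Treg identity, cytokine receptors and guidance, the adjusted p of the difference was 1.3e-09 for Il2rb, 1.5e-07 for Il2ra, 3.2e-07 for Ikzf2, 4.2e-07 for Nrp2 and 0.00023 for Foxp3. Foxp3 was low in both conventional groups, which were sorted as hCD2-, at 0.293 and 0.274 CPM in Teff and 2.34 and 3.20 in Tnaive.

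Towards Treg it was 9.6e-07 for Epas1, 1.6e-05 for Myo10, 0.00021 for Nav2, 0.00058 for Brdt, 0.0006 for Nacc2, 0.0023 for Alox8 and 0.0031 for Abhd15, a hydrolase gene that had 3.25 and 3.17 CPM in eTreg and 0.376 and 0.297 in cTreg, beside 20.7 and 12.3 in Teff and 17.1 and 16.3 in Tnaive. Towards conventional cells it was 9.3e-09 for Prr5l, 2.5e-05 for Aqp9, 4.9e-05 for Ly6d, 0.00065 for Peli2, 0.0014 for Pld4, 0.0036 for Adrbk2, 0.0058 for Itgb8 and 0.042 for Adam23. Itgb8 was called higher in both lineages, with 11.3 and 29.5 CPM in Teff and 0 reads in Tnaive. Each of these 8 genes, and Abhd15, Foxp3 and Nrp2, had 10 reads or fewer over both libraries of at least 1 of the 4 groups, which limits their precision. The differences of Itgb8 and Pld4 were not called in the fit of the 8 sorted libraries (adjusted p = 0.24 and 0.22), nor that of Adam23 whichever library was left out (0.061 to 0.19), that of Adrbk2 without cTreg library 1 (0.17), that of Pld4 without cTreg library 2 (0.097) or that of Itgb8 without Tnaive library 1 or 2 (0.051 and 0.055).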

How the results depend on the processing

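The 2302 higher and 1498 lower genes kept within 1.5 times their number with relative log expression factors, DESeq2, no expression filter and no scaling beyond library size (chosen after seeing the data; 67.4% of calls then higher, against 60.6%). The 3800 calls became 5790 in the fit of the 4 libraries (2660 lower), 1148 with the 2-fold threshold (917 higher, 231 lower), and 2695 to 3084 without 1 library (1692 to 1906 higher, 1003 to 1178 lower); the fit of the 8 sorted libraries gave 2433 lower. The 663 differences between lineages (192 higher, 471 lower) became 1183 in the fit of the 8 libraries (431 and 752), 196 with the threshold (32 and 164), and 426 to 608 without 1 library (105 to 145 and 318 to 463). The cause of these shifts was not tested; the fits differ in libraries and residual degrees of freedom.

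Replicate numbers are shared across groups, but the labels state no pairing and 2 pairs cannot show one (deviations of same-numbered libraries correlated across genes at 0.123 for eTreg and cTreg, and at 0.0801 to 0.233 over the 6 pairs of sorted groups, with the highest value for eTreg and Teff). With the number as a block, 6683 genes were called in the fit of the 4 libraries (3512 higher, 3171 lower) and 6276 in that of the 8 (2902 lower), where differences between lineages numbered 1922 (791 higher, 1131 lower) and those of Itgb8 and Peli2 were not called (adjusted p = 0.31 and 0.061).

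Of 195 called genes named in the text, none changed direction under any alternative run; 22 lost the call without some library and 11 under some other fit that kept every eTreg and cTreg library, while the 2-fold threshold ended 69 calls. Of 31 named genes not called, 13 were called under some alternative. Signs flipped only for genes that were not called. Without 1 library, log2 changes ranged from -0.16 to 0.08 for Acly, -0.30 to 0.59 for Gapdh, -0.02 to 0.05 for Il2rg, -0.07 to 0.15 for Itga4, -0.09 to 0.01 for Lck, -0.03 to 0.10 for Ltb, -0.04 to 0.24 for Mcm5 and -2.24 to 0.03 for Pld4. With no scaling Acly stood at 0.06 and Lck at 0.05, and with no filter Btla at -0.01, Il2rb at -0.02 and Il2rg at -0.03. Depth limits genes with 3 reads or fewer in a group, for which only bounds or ratios are given.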

Other observations

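Of the 15 genes at least 2-fold apart between the eTreg libraries, 12 were called higher in eTreg. Ecel1 and Sostdc1 are described above. Pkdcc, a secreted kinase gene, had 8.12 and 27.1 CPM in eTreg and 0.470 and 0.991 in cTreg, and Cacna1d, a calcium channel gene, 11.8 and 27.8 CPM in eTreg and 0.470 and 0.892 in cTreg. Atp1b1, a subunit of the sodium pump, was called lower, at 9.84 and 22.2 CPM in eTreg and 70.9 and 79.8 in cTreg. Erdr1 varied alike in both groups and was not called, at 26.7 and 107 CPM in eTreg and 40.7 and 146 in cTreg. These genes were chosen after their values were seen.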
